A study of Mus musculus with 8 samples.

Results

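Globin genes and 2 further erythroid marker genes were followed in dissected sympathetic ganglia of mouse embryos, as a group of 9 genes taken by symbol from the tables. They were the alpha-like globin genes *Hba-x*, *Hba-a1*, and *Hba-a2*, the beta-like globin genes *Hbb-y*, *Hbb-bh1*, *Hbb-b1*, and *Hbb-b2*, and the genes *Alas2* and *Slc4a1*. All 9 were found in both deposited tables, among 13506 genes at E11.5 and 13413 genes at E14.5. The study asked what the transcription factor ISL1 does in developing sympathetic neurons, and ganglia of mutant and control embryos were compared by RNA-seq at each stage, with 2 libraries per group and 8 in all. At E11.5, *Isl1* CKO embryos (*Wnt1-Cre;Isl1* f/f) were compared with control embryos (*Wnt1-Cre;Isl1* +/+). The labels give E11.5, while the paper gives a range of stages that starts at E11.5. How the pooled embryos of each genotype were spread over that range is not stated. Both E11.5 groups carried Wnt1-Cre and *Rosa26-tdTomato*, and non-fluorescent tissue had been taken off the dissected ganglia. At E14.5, *Isl1* hypomorphic embryos, which carry a neomycin cassette allele of *Isl1* (f-neo/f-neo) and keep part of its expression, were compared with wildtype embryos. For E14.5 the methods describe work under a dissecting microscope and name no fluorescent reporter. Between E11.5 control and E14.5 wildtype ganglia, stage thus differs together with Cre, reporter, and dissection, and these cannot be told apart. The labels call the mutants Isl1-/- at E11.5 and Isl1 mutation at E14.5, call both comparison groups wild type, and give the tissue as sympathetic ganglion. Ganglia of several embryos were pooled for each library. The study used Wnt1-Cre to remove *Isl1* from neural crest lineages, and Cre activity in blood cells was not tested here.

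Each table gives a single FPKM (fragments mapped to a gene, scaled by the length of its transcript and by the library size) per gene and genotype, in which the authors combined the 2 libraries. No value of a single library, no number of reads, and no spread between libraries could therefore be given. The depth is unknown, and the differences are given here without a replicate check and without a test. The 2 tables were normalized separately, so levels are set side by side across stages as a description. Ratios were computed as log2(FPKM + 0.1) of 1 group minus that of the other, and a gene was counted as higher or lower when its ratio was at least 1.5-fold. A ratio understates the difference of genes with low values. The E11.5 control column enters both the CKO ratio and the stage ratio, and the E14.5 wildtype column both the stage ratio and the hypomorph ratio. *Isl1* itself was at 133 FPKM in control ganglia and at 40.0 in the CKO, and at 162 in wildtype and 83.1 in hypomorphic ganglia. Sympathetic marker genes were present in each column, with *Dbh*, the enzyme that makes noradrenaline, between 543 and 608 FPKM.

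Hemoglobin is built from pairs of alpha-like and beta-like globin chains, each holding a heme group. In the mouse, the first wave of red cells arises in the yolk sac and enters the circulation as large nucleated cells that make the embryonic chains zeta (*Hba-x*), epsilon y (*Hbb-y*), and beta h1 (*Hbb-bh1*). Definitive red cells, which mature in the fetal liver, make the adult chains of *Hba-a1*, *Hba-a2*, *Hbb-b1*, and *Hbb-b2*. The change from embryonic to adult chains is known as globin switching. Adult chains are not limited to definitive cells, and the kind of red cell behind each globin value was not tested. *Alas2* encodes the erythroid form of the first enzyme of heme synthesis. *Slc4a1* encodes band 3, the anion exchanger of the red cell membrane. Dissected ganglia of an embryo contain blood vessels.

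In the mm9 genome, the beta-like genes lie on the minus strand of chromosome 7, with *Hbb-y* at chr7:111000259-111001754, *Hbb-bh1* at chr7:110990150-110991678, *Hbb-b1* at chr7:110975048-110976610, and *Hbb-b2* at chr7:110961038-110962510. The alpha-like genes lie on the plus strand of chromosome 11, with *Hba-x* at chr11:32176400-32178116, *Hba-a1* at chr11:32183511-32184465, and *Hba-a2* at chr11:32196489-32197301. *Slc4a1* lies on the minus strand of the same chromosome at chr11:102210138-102227517, and *Alas2* on the plus strand of chromosome X at chrX:146981918-147005181.

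The coding sequences show which globin rows can be told apart. The first 90 coding bases of each globin gene, from GENCODE transcripts on mm9, are given below from 5′ to 3′. In *Hba-x*, capitals mark bases that differ from *Hba-a1*, and in the beta-like genes they mark bases that differ from *Hbb-b1*.
Hba-a1: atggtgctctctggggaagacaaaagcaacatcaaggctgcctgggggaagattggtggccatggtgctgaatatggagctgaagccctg
Hba-a2: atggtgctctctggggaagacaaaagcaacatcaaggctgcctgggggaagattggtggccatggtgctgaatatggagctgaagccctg
Hba-x: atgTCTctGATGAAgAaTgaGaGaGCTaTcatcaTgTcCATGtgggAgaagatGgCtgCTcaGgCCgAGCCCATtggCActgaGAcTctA
Hbb-b1: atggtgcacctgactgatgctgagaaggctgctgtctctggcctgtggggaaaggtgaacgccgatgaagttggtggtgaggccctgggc
Hbb-b2: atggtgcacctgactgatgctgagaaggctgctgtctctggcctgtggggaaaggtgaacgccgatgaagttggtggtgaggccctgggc
Hbb-bh1: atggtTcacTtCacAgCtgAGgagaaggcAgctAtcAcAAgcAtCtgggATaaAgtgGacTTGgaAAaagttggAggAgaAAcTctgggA
Hbb-y: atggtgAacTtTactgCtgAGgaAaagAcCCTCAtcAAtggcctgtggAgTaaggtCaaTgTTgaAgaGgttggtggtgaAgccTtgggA

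The embryonic genes differ from the adult ones at 44 (*Hba-x*), 29 (*Hbb-bh1*), and 26 (*Hbb-y*) of these 90 bases, whereas the adult genes of each cluster are identical over them. Over the whole coding sequence, *Hba-a1* and *Hba-a2* differ at 1 of 429 bases and *Hbb-b1* and *Hbb-b2* at 1 of 444. *Hbb-bh1* and *Hbb-y* share 76.4% of their coding bases with each other, and *Hba-x* shares 62.0% with *Hba-a1*. The study's reads were 90 bases long. Of all 90-base windows of the transcript, 58.9% in *Hba-a1*, 77.2% in *Hba-a2*, 49.5% in *Hbb-b1*, and 55.5% in *Hbb-b2* are also found unchanged in the other adult gene of the cluster. No such window of *Hba-x*, *Hbb-y*, *Hbb-bh1*, *Alas2*, or *Slc4a1* is found in another gene of the set. The split of reads within each adult pair is therefore uncertain, and the embryonic genes carry their own reads. The rows differ between the tables as well. At E11.5, *Hba-a1* is in a row for *Hba-a1* and *Hba-a2* together, beside a second row for *Hba-a2*. *Hbb-b1* is there in a row shared with *Hbb-bs*, a further symbol for an adult beta globin gene, beside a second row for *Hbb-bs*. At E14.5 each of these symbols has a row of its own.

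In E11.5 control ganglia, embryonic globin RNA was abundant. *Hbb-y* was at 7552 FPKM, the highest value of the whole column, and *Hba-x* was at 2572 FPKM, the fourth highest. *Hbb-bh1* was at 370 FPKM. The adult rows were lower, with 284 FPKM for *Hba-a1*, 124 for *Hba-a2*, 273 for *Hbb-b1*, and 208 for *Hbb-b2*. *Alas2* was at 29.0 and *Slc4a1* at 22.6 FPKM. On this scale, which is per transcript length, the order in control ganglia was *Hbb-y*, *Hba-x*, *Hbb-bh1*, *Hba-a1*, *Hbb-b1*, *Hbb-b2*, *Hba-a2*, *Alas2*, *Slc4a1*. Without a spread between libraries, it is unknown which neighbours in this order differ. *Hbb-y* and *Hbb-bh1* together made up 94.3% of the FPKM of the 4 beta-like genes, and *Hba-x* made up 86.3% of the FPKM of the 3 alpha-like genes. *Hbb-y* was 20.4 times as high as *Hbb-bh1*.

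**Figure D1:**
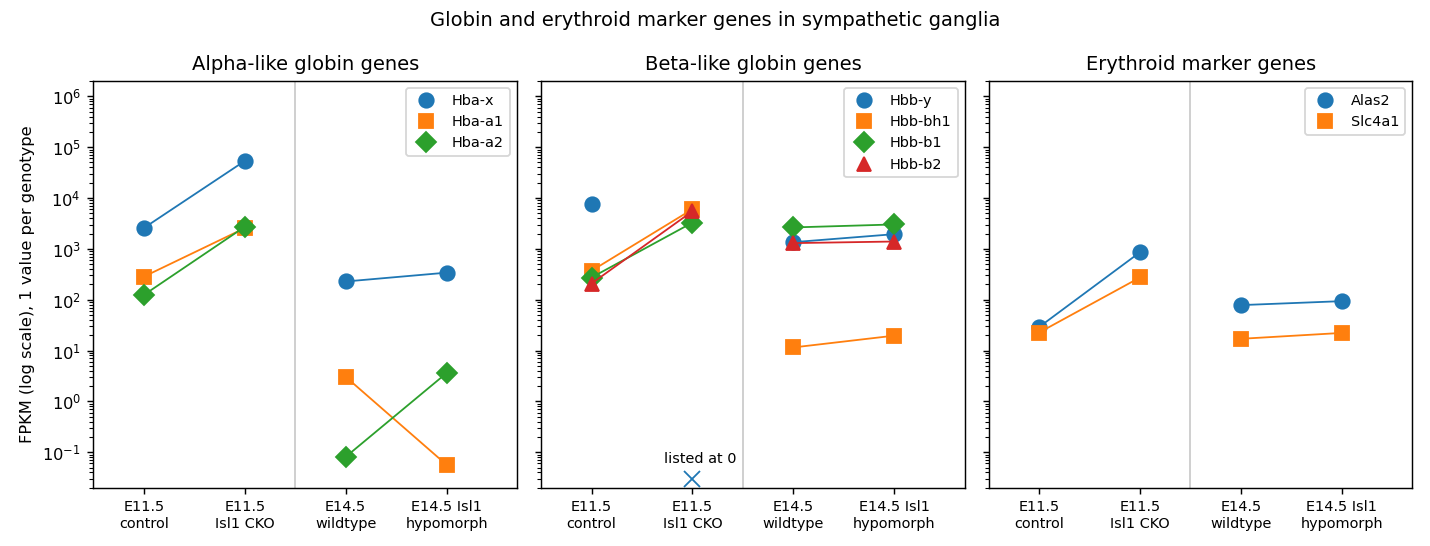
FPKM (log scale) of the 9 genes in the 4 groups, with 1 value per genotype and lines only between genotypes of the same table. In E11.5 CKO ganglia 8 genes lie above control and *Hbb-y* (cross) is listed at 0, whereas at E14.5 the ratios are 1.70-fold or less except for *Hba-a1* and *Hba-a2*, whose values are 3.6 FPKM or less.

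In *Isl1* CKO ganglia at E11.5, 8 of the 8 genes with a ratio were higher than in control ganglia, by 8.99-fold to 29.7-fold. Across all 13347 genes with a ratio, 18.7% were at least 1.5-fold higher and 12.3% at least 1.5-fold lower. The median log2 ratio of the 8 genes was 4.2, against 0.05 for all genes. When FPKM was rescaled to an equal sum without erythroid genes, 11.9% of all genes were higher and 21.1% lower, and the median of all genes was -0.16. The 8 genes were all higher under that scaling as well, with a median of 3.99. In bulk tissue, more cells of a type and more RNA per cell cannot be told apart.

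Among the embryonic globin genes, *Hba-x* was at 2572 FPKM in control ganglia and at 53627 in the CKO, where it was the highest value of the column, and its ratio was 20.9-fold. *Hbb-bh1* went from 370 to 6015 FPKM, the third highest value in CKO ganglia, with a ratio of 16.3-fold. *Hbb-y*, the first gene of the control column, was listed at 0 in CKO ganglia. Since the other embryonic globins were at 6015 and 53627 FPKM in the same column, this 0 was treated as a failed estimate, and *Hbb-y* enters no ratio or sum for CKO ganglia.

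The adult globin genes were higher in CKO ganglia too. *Hbb-b2* was at 208 FPKM in control ganglia and at 5489 in the CKO (26.4-fold), and *Hbb-b1* at 273 and 3281 (12.0-fold). Their sum went from 481 to 8770 FPKM, which is 18.2-fold and lies between the ratios of *Hbb-bh1* and *Hba-x*. *Hba-a2* was at 124 and 2720 FPKM (22.0-fold), and *Hba-a1* at 284 and 2557 (8.99-fold). The 2 adult alpha rows summed to 408 and 5277 FPKM, or 12.9-fold. Within each adult pair the row that was lower in control ganglia was the higher one in CKO ganglia, and *Hbb-b1* over *Hbb-b2* was 1.32 in control and 0.598 in CKO ganglia. The rows of a pair share reads, and the part of that in this change of order was not tested.

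The 2 erythroid markers had ratios within or above the range of the globins. *Alas2* was at 29.0 FPKM in control ganglia and at 859 in the CKO, a ratio of 29.7-fold, and *Slc4a1* at 22.6 and 274 FPKM, a ratio of 12.1-fold. Ranked by log2 ratio among the 13347 genes, *Alas2* came at position 13, *Hbb-b2* at 15, *Hba-a2* at 23, *Hba-x* at 25, *Hbb-bh1* at 39, *Slc4a1* at 62, *Hbb-b1* at 64, and *Hba-a1* at 101. *Alas2* over *Slc4a1*, a ratio within a column that does not depend on its scaling, was 1.28 in control and 3.14 in CKO ganglia. The rows of the 7 globin genes and *Hbb-bs* together took 2.4% of all FPKM in control and 12.0% in CKO ganglia, without *Hbb-y* in the latter.

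The balance of embryonic to adult chains at E11.5 can be read only in part, since *Hbb-y* has no value in CKO ganglia. Without *Hbb-y* in either column, *Hbb-bh1* made up 43.5% of the beta-like FPKM in control and 40.7% in CKO ganglia. *Hba-x* made up 86.3% and 91.0% of the alpha-like FPKM. *Hba-x* over the 2 adult beta genes was 5.34 in control and 6.11 in CKO ganglia, and adult beta over adult alpha was 1.18 and 1.66. These shares have no error, and their difference was not tested.

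**Figure D2:**
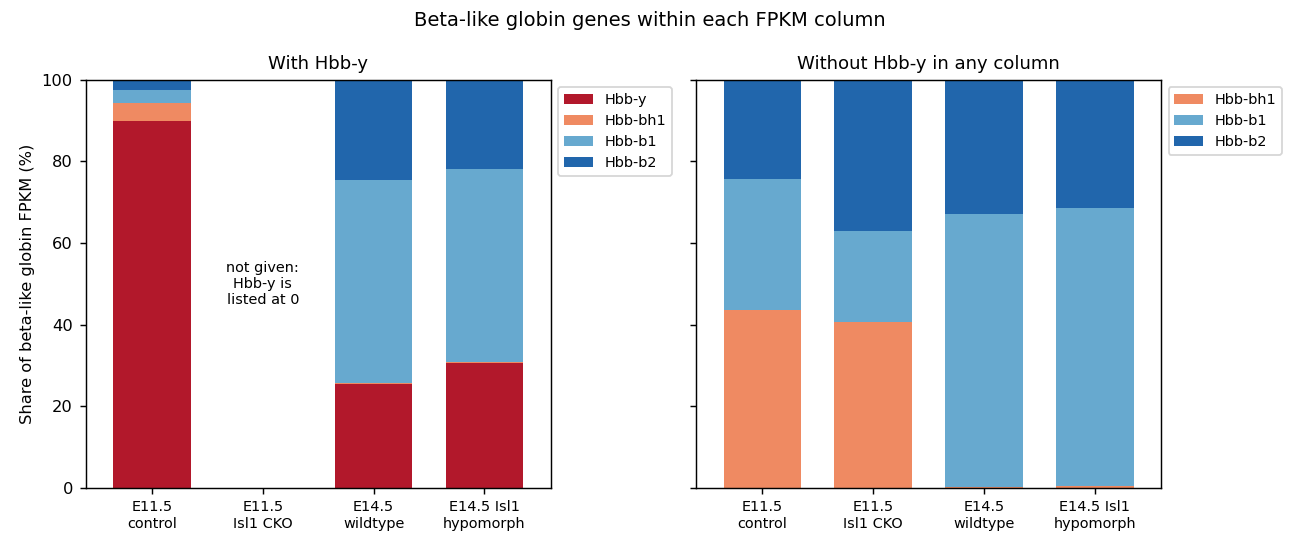
Share of each beta-like globin gene in the summed FPKM of these genes (%), with *Hbb-y* (left) and without it in any column (right), in the 4 groups. Embryonic genes (red and orange) make up 94.3% in E11.5 control and 25.8% in E14.5 wildtype ganglia, no bar with *Hbb-y* is given for CKO ganglia, and without *Hbb-y* the share of *Hbb-bh1* is 43.5% and 40.7% at E11.5 and under 1% at E14.5.

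Between E11.5 control and E14.5 wildtype ganglia, the 3 embryonic globin genes were lower at the later stage and the 2 adult beta genes were higher. *Hbb-bh1* went from 370 to 11.5 FPKM (32-fold lower), *Hba-x* from 2572 to 228 FPKM (11.3-fold lower), and *Hbb-y* from 7552 to 1353 FPKM (5.58-fold lower). *Hbb-b1* went from 273 to 2638 FPKM (9.65-fold higher), which made it the fifth highest value at E14.5, and *Hbb-b2* from 208 to 1297 FPKM (6.24-fold higher). The E11.5 value of *Hbb-b1* is that of the row shared with *Hbb-bs*, and the E14.5 value that of *Hbb-b1* alone, so these rows are not alike. In all, 3 of the 9 genes were higher and 5 lower, against 29.7% and 12.6% of the 12633 genes in both tables. All genes had a median log2 ratio of 0.24 here, and of 0.31 after rescaling without erythroid genes. Measured from the first of these medians, the embryonic genes were still lower (-2.72 to -5.23) and the adult beta genes still higher (2.4 and 3.03). The direction of these 5 genes was thus the same on both scales.

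The switch can also be read within each column, where scaling plays no part, although the row of *Hbb-b1* still differs between the stages. *Hbb-y* and *Hbb-bh1* made up 94.3% of the FPKM of the 4 beta-like genes in E11.5 control and 25.8% in E14.5 wildtype ganglia. Nearly all of what was left at E14.5 was *Hbb-y*, which was 117 times as high as *Hbb-bh1* there and 20.4 times as high at E11.5. *Hba-x* over the adult beta genes was 5.34 at E11.5 and 0.0579 at E14.5. Measured against *Alas2*, adult beta globin was 16.6 times as high at E11.5 and 50.3 times at E14.5, and *Hba-x* was 88.8 and 2.91 times as high. Adding the row of *Hbb-bs*, which was at 36.6 FPKM at E11.5 and 709 at E14.5, gave embryonic shares of 93.9% and 22.7%. At E11.5 the *Hbb-b1* row also names *Hbb-bs*, so the rows in this sum may overlap.

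The erythroid markers themselves differed less between stages. *Alas2* was at 29.0 FPKM in E11.5 control and 78.2 in E14.5 wildtype ganglia (2.70-fold higher), and *Slc4a1* at 22.6 and 17.0 FPKM, a ratio of 0.752. The log2 ratio of *Slc4a1* was -0.41, and -0.65 when measured from the median of all genes, which lies beyond the 1.5-fold threshold. *Alas2* over *Slc4a1* was 1.28 at E11.5 and 4.60 at E14.5.

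The adult alpha genes did not follow the adult beta genes. *Hba-a1*, in a shared row at E11.5, was at 284 FPKM there and 3.04 in E14.5 wildtype ganglia, and *Hba-a2* at 124 and 0.0809 FPKM. Their sum was 408 and 3.12 FPKM, while that of the adult beta genes was 481 and 3935 FPKM. Adult beta over adult alpha was thus 1.18 and 1.66 in the E11.5 columns, and 1260 and 1206 in the E14.5 columns. Hemoglobin holds as many alpha-like as beta-like chains. *Hba-a1* and *Hba-a2* share the larger part of their 90-base windows, and 96.6% of those of *Hba-a2* lie within 2 mismatches of another globin transcript. The methods state that only uniquely aligned reads were kept, and the part of this in the low rows was not tested. Because of these rows, the share of *Hba-x* in alpha-like FPKM at E14.5 (98.6% in wildtype and 98.9% in hypomorphic ganglia) says nothing of the switch.

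**Figure D3:**
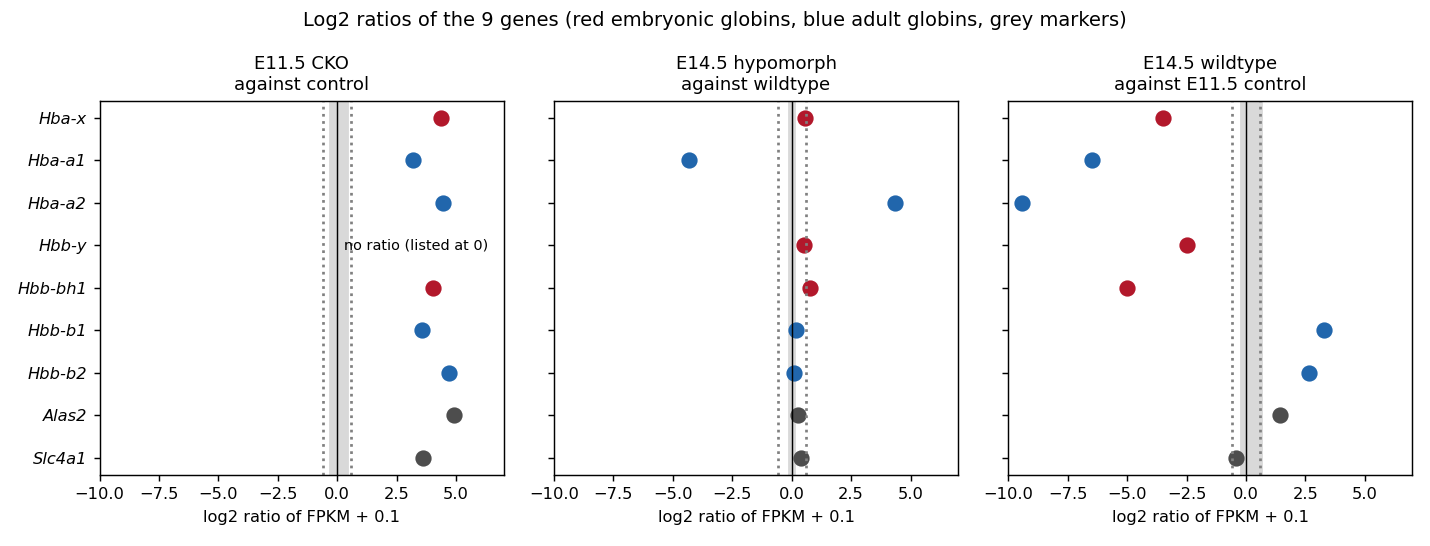
Log2 ratio of FPKM + 0.1 for each of the 9 genes in the 3 comparisons, with the quartiles of all genes shaded and the 1.5-fold threshold dotted. At E11.5 8 genes lie between 3.17 and 4.89, at E14.5 most lie between 0.10 and 0.76 with *Hba-a1* and *Hba-a2* at -4.33 and 4.36, and between stages embryonic globins lie below 0 and adult beta globins above.

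In *Isl1* hypomorphic ganglia at E14.5, the 7 genes outside the adult alpha pair had ratios of 1.07-fold to 1.70-fold. The quartiles of the log2 ratio over all genes were -0.11 and 0.12. The largest ratio outside the adult alpha rows was that of *Hbb-bh1*, at 11.5 FPKM in wildtype and 19.6 in hypomorphic ganglia (1.70-fold). *Hba-x* was at 228 and 340 FPKM (1.49-fold, just below the threshold) and *Hbb-y* at 1353 and 1944 FPKM (1.44-fold). *Hbb-b1* was at 2638 and 3020 FPKM (1.14-fold), and *Hbb-b2* at 1297 and 1394 FPKM (1.07-fold). *Alas2* was at 78.2 and 93.6 FPKM (1.2-fold), and *Slc4a1* at 17.0 and 22.2 FPKM (1.31-fold). The 3 embryonic globin genes thus had ratios of 1.44 to 1.70 and the 2 adult beta genes ratios of 1.07 to 1.14, a difference that was not tested. Ranked by log2 ratio among the 13344 genes, *Hbb-bh1* came at position 141, *Hba-x* at 334, *Hbb-y* at 441, *Slc4a1* at 867, *Alas2* at 1596, *Hbb-b1* at 2217, and *Hbb-b2* at 3746.

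By the 1.5-fold rule, 2 of the 9 genes were higher and 1 was lower in hypomorphic ganglia, against 2.38% and 2.13% of the 13344 genes with a ratio. Of these 3 calls, 2 come from the adult alpha pair. *Hba-a1* was at 3.04 FPKM in wildtype and 0.0565 in hypomorphic ganglia, and *Hba-a2* at 0.0809 and 3.6 FPKM. *Hba-a2* had the highest log2 ratio of the whole table and *Hba-a1* the second lowest. Their sum was 3.12 and 3.66 FPKM, a ratio of 1.17-fold. With the adult pairs summed, 1 of the 7 values, *Hbb-bh1*, was at least 1.5-fold higher. The median log2 ratio of the 9 genes was 0.38, against 0.00 for all genes. The embryonic share of beta-like FPKM was 25.8% in wildtype and 30.8% in hypomorphic ganglia. The same globin rows took 1.39% and 1.72% of all FPKM. Whether the ratio of these genes differed between the E11.5 and the E14.5 mutant was not tested, since neither has an error.

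The genes of the wider erythroid program were described from 4 lists that leave out the 9 genes and hold 60 symbols. At E11.5, 56 were in the table, of which 44 were at least 1.5-fold higher and 1 lower in CKO ganglia, beside 18.7% and 12.3% of all genes (11.9% and 21.1% after rescaling without erythroid genes). The table keeps a gene if either genotype reaches 1 FPKM, and so a low gene can enter through the group where it is high. Of the 52 with at least 1 FPKM in control ganglia, 40 were higher and 1 lower, with a median log2 ratio of 1.62. At E14.5, 3 of the 54 with at least 1 FPKM in wildtype ganglia were higher and 0 lower in hypomorphic ganglia, with a median of 0.15. Of all genes, 2.38% were higher and 2.13% lower there. The counts of each list below stand against the same shares of their stage. No test could be run at either stage.

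For heme synthesis and iron uptake, 9 of 15 genes in the table were higher in E11.5 CKO ganglia and 0 lower. *Fech*, which inserts iron into the heme ring, was at 17.6 FPKM in control ganglia and at 189 in the CKO. *Slc25a37*, the mitochondrial iron importer mitoferrin, was at 15.2 and 63.3 FPKM, and *Urod*, an enzyme of the middle steps, was at 45.5 and 141 FPKM. *Alas1*, the form of the first enzyme that most tissues use, was at 10.1 and 11.8 FPKM, and the transferrin receptor *Tfrc* at 25.8 and 17.8 FPKM. *Fech* thus had the largest ratio of those named, and *Alas1* one under 1.5-fold. At E14.5, 0 of 16 genes of the list passed 1.5-fold in either direction.

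For the red cell membrane and its skeleton, 14 of 17 genes were higher and 1 lower in E11.5 CKO ganglia. *Rhd* and *Kel*, which carry blood group antigens, were at 4.13 and 56.4 and at 3.77 and 41.9 FPKM. The gene counted as lower was *Sptb*, a spectrin chain that neurons also make, at 16.1 and 9.68 FPKM. *Add2*, which neurons also express, was at 35.1 and 29.4 FPKM. At E14.5, 0 of 17 genes passed 1.5-fold, and the median log2 ratio was 0.30.

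For transcription and signalling in the erythroid lineage, 9 of 12 genes were higher in E11.5 CKO ganglia and 0 lower, or 7 of 10 with at least 1 FPKM in control ganglia. *Nfe2* was at 2.80 FPKM in control ganglia and at 29.8 in the CKO, *Tal1* at 2.36 and 19.0, and *Klf1*, an activator of adult beta globin, at 1.99 and 18.5. *Gata1*, the central factor of the lineage, was at 0.923 and 9.68 FPKM. *Ldb1* and *Zfpm1*, which are also expressed outside blood, were at 63.5 and 60 and at 16.7 and 18.8 FPKM. At E14.5, 3 of 11 genes were higher, or 2 of 10 with at least 1 FPKM in wildtype ganglia, at log2 ratios of at most 0.62. The share over all genes was 2.38%.

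For the red cell cytosol and maturation, 12 of 12 genes were higher in E11.5 CKO ganglia, or 11 of 11 with at least 1 FPKM in control ganglia. *Car2*, a carbonic anhydrase, was at 20.5 and 300 FPKM, *Bpgm*, which makes the regulator of oxygen release by hemoglobin, at 29.0 and 221 FPKM, and *Gpx1*, a peroxidase, at 147 and 711 FPKM. *Prdx2*, the most abundant gene of the list, was at 731 and 1540 FPKM. At E14.5, 1 of 11 was higher, *Hemgn*, at 1.81 and 3.36 FPKM, beside 2.38% of all genes.

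**Figure D4:**
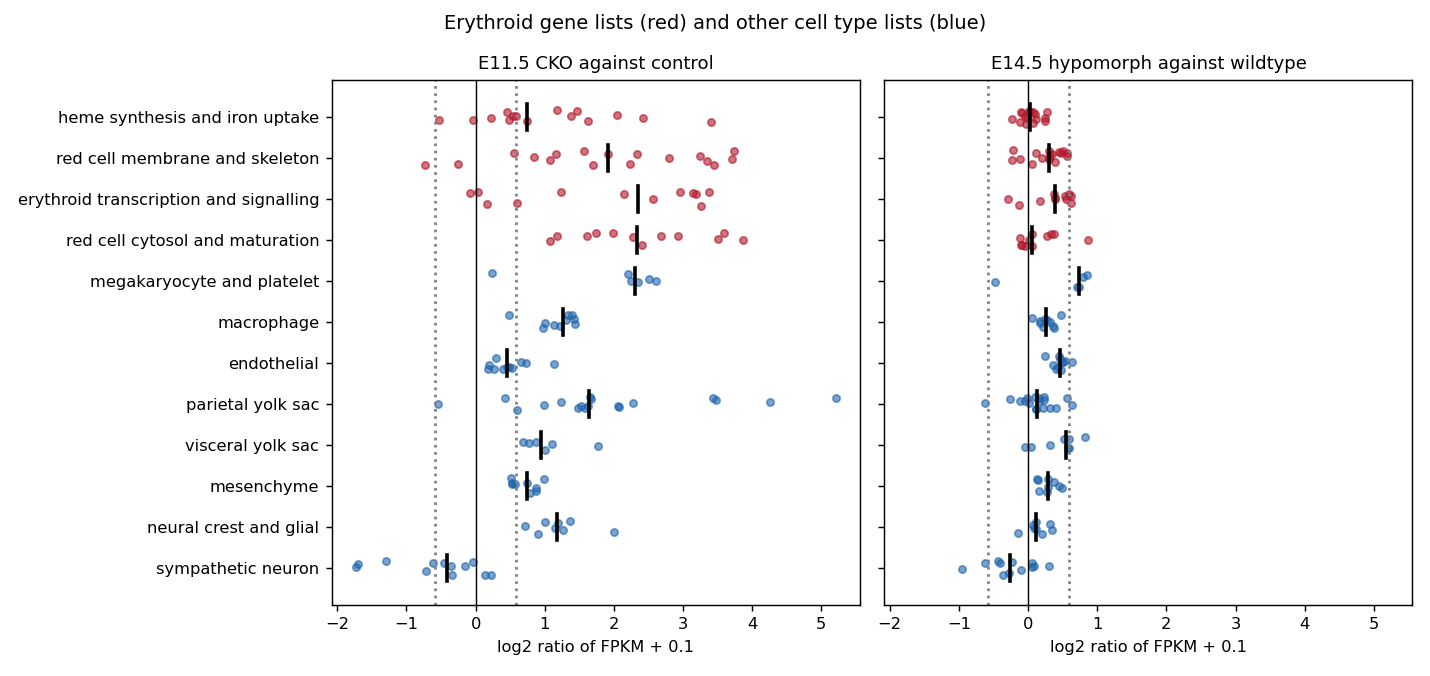
Log2 ratio of FPKM + 0.1 of each gene of the erythroid lists (red) and of lists for other cell types (blue), in CKO against control ganglia at E11.5 and in hypomorphic against wildtype ganglia at E14.5, with the median of each list as a black bar and the 1.5-fold threshold dotted. At E11.5 the medians of the erythroid lists lie between 0.74 and 2.35 and of the lists drawn only that of sympathetic neurons has a median below 0, and at E14.5 the erythroid medians lie between 0.02 and 0.39.

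Several lists of markers of other cell types were also higher in the E11.5 comparison, while others were level or lower. Their counts stand against 18.7% of all genes higher, or 11.9% after rescaling without erythroid genes. The listed megakaryocyte and platelet genes, another lineage of the same blood progenitors, summed to 21.6 FPKM in control ganglia and 81.2 in the CKO, and 3 of the 4 with at least 1 FPKM in control ganglia were higher, among them *Pf4* at 8.52 and 41.0 FPKM. Macrophage genes summed to 63.7 and 147 FPKM, with 9 of 10 higher. Parietal yolk sac genes summed to 352 and 1231 FPKM, with 14 of the 16 that had at least 1 FPKM in control ganglia higher. The most abundant were *Sparc* at 129 and 369 and *Col4a1* at 36.1 and 174 FPKM. Both are matrix genes that other tissues also make, and in E14.5 wildtype ganglia *Sparc* was at 251 and *Col4a1* at 99.3 FPKM. Of 14 visceral yolk sac genes 6 were in the table, and they summed to 84.5 and 176 FPKM. Most of that sum was *Apoe* (67.7 and 147 FPKM) and *Trf* (12.2 and 19.6 FPKM). The 4 with at least 1 FPKM in control ganglia were all higher. Of 18 trophoblast and decidua genes 4 were in the table, of which 3 were higher, each under 1 FPKM in control ganglia and so in the table only through the CKO, with *Prl8a2* at 0.241 and 48.4 and *Prl3b1* at 0.226 and 11 FPKM. Of 10 liver genes only *Alb* was in the table, at 1.81 and 1.96 FPKM. Endothelial genes summed to 96.8 and 131 FPKM (3 of 11 higher), mesenchyme genes to 595 and 1031 FPKM (5 of 9 higher), and neural crest and glial genes to 261 and 579 FPKM (8 of 8 higher). The sympathetic neuron genes summed to 3046 and 2596 FPKM, with 0 of 12 higher and 5 lower. The part of these cell types in the globin values was not tested.

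At E14.5, endothelial genes had a median log2 ratio of 0.46 with every one of the 11 between 0.25 and 0.63, against 0.45 at E11.5. Macrophage genes had a median of 0.26 with 0 of 10 past 1.5-fold. Of the 4 megakaryocyte and platelet genes with at least 1 FPKM in wildtype ganglia, 3 were higher, beside 2.38% of all genes. *Alb* was at 9.47 and 16.0 FPKM. On the log2 scale, *Alas2* (0.26), *Slc4a1* (0.38), *Hbb-y* (0.52), and *Hba-x* (0.58) lay within the range of the endothelial genes, *Hbb-b1* (0.19) and *Hbb-b2* (0.10) below it, and *Hbb-bh1* (0.76) above it. The part of these cell types in the globin values was not tested.

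The genes whose profile over the 4 groups came closest to that of *Alas2* were named from 10766 genes by the distance between centred log2 values. With only 4 columns this is a description. The 10 nearest genes were *Pnoc*, *Tinagl1*, *Hbq1a*, *Penk*, *Ube2l6*, *Wfdc1*, *Trim10*, *Procr*, *Fam46c*, and *Gm4013*, at distances of 0.40 to 0.97. *Hbq1a*, a theta globin gene of the alpha cluster, was at 0.277 and 7.48 FPKM at E11.5 and at 0.775 and 1.06 FPKM at E14.5. *Tinagl1* was at 3.47 and 73.0 FPKM at E11.5 and at 6.88 and 8.53 FPKM at E14.5. Of the 10, only *Hbq1a* and *Trim10* were on a globin or erythroid list. *Pnoc*, *Hbq1a*, *Wfdc1*, and *Gm4013* were under 1 FPKM in E11.5 control ganglia and reached the filter of 5 FPKM in the CKO alone. Among the 9 genes themselves, *Hbb-b2* (distance 1.23) and *Slc4a1* (1.46) were nearer to *Alas2* than *Hba-x* (4.54), *Hbb-bh1* (5.78), and *Hba-a2* (9.07). The level of these last genes was lower at the later stage. *Hba-a1* and *Hbb-b1*, in merged rows at E11.5, have no distance, and that of *Hbb-y* would rest on its 0 and is not given.

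The sequences just upstream are shown because the 3 alpha-like genes and *Alas2* were higher together in CKO ganglia. The 120 bases before the RefSeq start (GRCm38.p6) were found for 5 of the 9 genes, and of the beta-like genes only for *Hbb-y*, which has no ratio at E11.5. Capitals mark 4 short motifs on either strand. GATAA is a core bound by GATA factors. CACCC is bound by factors of the KLF family. CCAAT and the TATA box TATAA are common promoter elements. The windows are chr11:32276480-32276599 for *Hba-x*, chr11:32283552-32283671 for *Hba-a1*, chr11:32296372-32296491 for *Hba-a2*, and chrX:150547297-150547416 for *Alas2*, all on the plus strand, and chr7:103853208-103853327 on the minus strand for *Hbb-y*.
Hba-x: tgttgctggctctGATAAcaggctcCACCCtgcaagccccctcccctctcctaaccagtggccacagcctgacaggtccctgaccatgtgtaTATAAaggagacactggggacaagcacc
Hba-a1: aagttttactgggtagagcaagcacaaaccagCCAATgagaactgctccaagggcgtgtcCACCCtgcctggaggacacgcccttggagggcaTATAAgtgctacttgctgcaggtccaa
Hba-a2: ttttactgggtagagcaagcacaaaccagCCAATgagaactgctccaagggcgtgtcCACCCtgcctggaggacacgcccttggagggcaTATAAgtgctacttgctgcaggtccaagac
Hbb-y: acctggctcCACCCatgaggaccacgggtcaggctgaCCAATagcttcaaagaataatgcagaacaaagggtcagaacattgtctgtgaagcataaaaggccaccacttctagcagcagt
Alas2: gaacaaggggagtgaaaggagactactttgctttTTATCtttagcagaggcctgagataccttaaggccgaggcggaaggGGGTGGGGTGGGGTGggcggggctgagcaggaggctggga

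CACCC was found in each of these 5 windows, and 3 times in that of *Alas2*. GATAA was found in those of *Hba-x* and *Alas2*, and CCAAT in those of *Hba-a1*, *Hba-a2*, and *Hbb-y*. Over 250 bases before the start, CACCC was present in 52.0%, CCAAT in 33.8%, TATAA in 22.8%, and GATAA in 22.6% of 32851 mouse promoters, and each of the 5 genes held CACCC and GATAA. The upstream bases of *Hba-a1* and *Hba-a2* are nearly the same, so these are not separate examples. A match is a description of the letters and shows no binding.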

How the data were processed

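RNA-seq was performed by the authors on polyA RNA of pooled sympathetic ganglia, with cDNA from a SMARTer kit and paired-end reads of 90 bases, aligned to mm9 with TopHat and combined per genotype with cuffdiff. The submitters' processing notes name Bowtie, TopHat 1.3.1, Cuffdiff 1.3.0, and dm3, a fly build, while the tables hold mouse symbols. FPKM values were deposited by the authors as 1 column per genotype in 2 tables, which keep genes of at least 1 FPKM in either genotype. Their fold change and p-value columns, which hold the authors' own comparisons, were not used. Rows at 0 in either column (159 at E11.5 and 69 at E14.5) were left out of ratios.

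Log2 ratios used a pseudocount of 0.1 and a threshold of 1.5-fold, with Python 3.11.15, numpy 2.4.6, and pandas 2.3.3, and the steps were tested on simulated data. Groups were taken from the labels. The labels give 2 libraries per group without naming separate litters. The 9 genes and the lists were chosen with earlier results of these data known. Named were the 9 genes, genes of the globin and erythroid lists of at least 10 FPKM in any column, regulators, the 2 most abundant genes of each cell type list, *Isl1*, and the 10 genes nearest to *Alas2* among those of at least 5 FPKM in any column. *Ngb*, *Mb*, and *Dbh* were named outside this rule, after their values were seen. Alternatives were other pseudocounts, filters, scalings, thresholds, and sums of paralogs. Promoters came from RefSeq (GRCm38.p6) and coding sequences from GENCODE on mm9.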

Additional observations from a re-analysis of the deposited data

How the results depend on the processing

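No paired analysis was possible because the deposited tables combine the 2 libraries of each genotype into 1 value, and for the same reason no library could be left out. With no spread between libraries, a value counted as moved when it changed by more than 1.5-fold. Of 77 alternatives for counts, medians, and shares, 69 kept the value within this limit and 8 moved it. A turn of direction could not be scored for counts and shares. Of 180 alternatives for single genes, 174 kept it, and the 6 that moved it were pseudocounts of 1 or 0.01 for *Hba-a1* and *Hba-a2*, whose E14.5 values are near 0. The count of genes higher in hypomorphic ganglia, 2 as reported, was 1 with a filter of 5 FPKM, 1 at a threshold of 2-fold, 5 at 1.2-fold, and 1 with the adult pairs summed. It was 3 after rescaling without erythroid genes, when *Hba-x* passed the threshold at a log2 ratio of 0.61. Without *Hbb-y*, the embryonic share of beta-like FPKM was 43.5% in E11.5 control, 0.293% in E14.5 wildtype, and 0.443% in hypomorphic ganglia. Without *Hbb-b2*, the share of *Hbb-bh1* in CKO ganglia was 64.7% in place of 40.7%. The inclusion of *Hbb-bs* and a rescaling without erythroid and small RNA genes were added after seeing the data, and with them the counts, medians, and shares stayed within the limit. These alternatives say nothing of the spread between embryos.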

Other observations

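Genes that regulate globin switching in erythroid cells had low levels in these ganglia, and 6 were listed. *Bcl11a*, a repressor of embryonic beta-like globin genes that neurons also express, was at 10.4 FPKM in E11.5 control and 10.2 in CKO ganglia. At E14.5 it was at 11.8 FPKM in wildtype and 4.95 in hypomorphic ganglia, a log2 ratio of -1.23. *Lin28b*, an RNA-binding protein of early development, was at 7.98 FPKM in E11.5 control ganglia, 2.17 in the CKO, 2.18 in E14.5 wildtype, and 2.18 in hypomorphic ganglia. *Klf3* was at 12.2 and 20.7 FPKM at E11.5, a log2 ratio of 0.76, and at 12.4 and 15.0 FPKM at E14.5. *Myb* was at 1.94 and 1 FPKM at E11.5 and at 1.39 and 1.86 FPKM at E14.5. *Sox6* and *Zbtb7a* stayed under 1.5-fold in both mutants, at log2 ratios of -0.42 and -0.48 in the CKO and -0.06 and -0.05 in the hypomorph. The tables give no spread between libraries for these ratios.

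Globins outside the red cell clusters had other profiles. Cytoglobin (*Cygb*) was at 3.07 FPKM in E11.5 control and 3.90 in CKO ganglia, and at 15.2 in wildtype and 12.1 in hypomorphic ganglia. Neuroglobin (*Ngb*) was listed at E14.5 alone, at 2.10 FPKM in wildtype and 1.93 in hypomorphic ganglia. Myoglobin (*Mb*) was at 0.499 and 1.37 FPKM at E11.5 and at 1.76 and 1.49 FPKM at E14.5.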
